A study of Mus musculus with 6 samples.

Results

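The Serpina3 genes of the mouse are a cluster of serine protease inhibitors, the serpins, that stand where the human genome has the single gene for alpha-1-antichymotrypsin. The 8 genes described here, Serpina3c, Serpina3f, Serpina3g, Serpina3h, Serpina3i, Serpina3k, Serpina3m and Serpina3n, were selected because those with enough counts to be tested were higher in those of these same libraries that are labelled as carrying floxed Stat3. They were found by their symbols among 44556 gene rows, and 4 of the 8 passed the filter on low counts, as did 15600 genes in all. Because the selection used the genotype contrast, the values of the 8 genes between genotypes are a description, and no test of them is given.

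Bulk RNA sequencing was done on parietal bone, a part of the calvaria, from newborn C57BL/6 littermates of 2 genotypes, with 3 libraries each. The OsxCre animals carried Cre recombinase under the Osterix promoter, which is active in cells of the osteoblast lineage, and served as controls. The OsxCre;Stat3fl/fl animals carried the same Cre and floxed alleles of Stat3, so both genotypes shared the Cre and only Osterix-expressing cells and their progeny could lose Stat3. Total counts ranged from 8193651 to 12080044 per library.

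The Stat3 counts did not separate the genotypes in the direction of a deletion. Stat3, the transcription factor that was targeted, was at 150, 135 and 141 CPM (counts scaled to an equal library size by the TMM method) in the OsxCre libraries. In those labelled OsxCre;Stat3fl/fl, named Stat3fl/fl-labelled libraries from here on, it was at 153, 155 and 155 CPM. The fitted log2 difference was 0.12 (SE 0.07, n = 3 per genotype, adjusted p = 0.442 by edgeR's quasi-likelihood test with Benjamini-Hochberg adjustment over all tested genes). The row counts reads over the whole gene in all cells of the tissue, so it does not read the deleted exons alone. The genotype therefore rests on the labels, and every direction below is between libraries so labelled. The study describes the newborns as male, whereas 4 Y-linked genes summed to 0, 0 and 0 counts in the OsxCre libraries and to 0, 2 and 0 in the others, with Xist at 881 to 1059 CPM. All 12 osteoblast marker genes read were tested and none was at 0. Their summed level was 24640 to 32508 CPM in the OsxCre libraries and 21433 to 27108 CPM in the Stat3fl/fl-labelled libraries, and 1 of the 12, Ibsp, was lower at adjusted p = 0.0213.

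A serpin inhibits a protease by offering an exposed loop near its C-terminus as bait. The protease cuts the loop, the cut loop inserts into the body of the serpin, and the protease is held in a covalent complex, so the residues of the loop set which proteases are caught. The body of the protein is conserved among the Serpina3 genes of the mouse, and the loop is not. Serpina3n is an acute-phase gene of liver and of reactive astrocytes whose secreted product inhibits granzyme B and neutrophil serine proteases. Serpina3g, also called Spi2A, acts inside the cell against lysosomal cathepsins, and Serpina3k is a liver gene whose product binds tissue kallikrein. Interleukin-6-type cytokines acting through STAT3, interferon-gamma, and glucocorticoids are known inducers of genes of this family.

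The cluster lay at chr12:104112724-104414334 (GRCm38.p6, RefSeq), a span of 302 kb with 14 annotated Serpina3 loci. Serpina3f (chr12:104214544-104221129), Serpina3g (chr12:104236147-104241939), Serpina3h (chr12:104247896-104254405) and Serpina3i (chr12:104263045-104269509) were neighbours within 55.0 kb. Serpina3n (chr12:104406646-104414334) closed the cluster, 137 kb beyond Serpina3i. Serpina3h is annotated as a transcribed pseudogene, and the other 7 members as protein-coding genes.

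The coding sequence of the loop is where the members differ most, and it is shown for the 7 members with a coding transcript in GENCODE vM1 to make that visible. Each stretch is read 5′ to 3′ on the coding strand from the last coding exon of the transcript. Capitals mark the bases between the conserved start of the hinge and the conserved stretch that follows the loop. Their first bases, which continue the hinge, are still alike in most members.
Serpina3n: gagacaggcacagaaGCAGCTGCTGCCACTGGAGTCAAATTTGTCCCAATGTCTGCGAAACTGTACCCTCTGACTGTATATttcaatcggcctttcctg
Serpina3g: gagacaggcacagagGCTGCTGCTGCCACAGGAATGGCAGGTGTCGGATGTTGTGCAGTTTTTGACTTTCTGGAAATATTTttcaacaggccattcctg
Serpina3f: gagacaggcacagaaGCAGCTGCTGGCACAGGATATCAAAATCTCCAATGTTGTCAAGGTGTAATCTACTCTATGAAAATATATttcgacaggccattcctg
Serpina3i: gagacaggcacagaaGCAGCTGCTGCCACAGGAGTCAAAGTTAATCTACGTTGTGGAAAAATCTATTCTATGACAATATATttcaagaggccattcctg
Serpina3c: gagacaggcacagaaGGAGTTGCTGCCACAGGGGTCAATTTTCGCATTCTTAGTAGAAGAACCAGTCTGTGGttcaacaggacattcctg
Serpina3k: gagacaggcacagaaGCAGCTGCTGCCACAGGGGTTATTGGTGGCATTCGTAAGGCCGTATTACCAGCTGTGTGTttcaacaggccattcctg
Serpina3m: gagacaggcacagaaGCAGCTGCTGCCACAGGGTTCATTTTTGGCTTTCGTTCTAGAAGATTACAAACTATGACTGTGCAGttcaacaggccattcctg

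The loop ran from 57 bases in Serpina3c to 69 in Serpina3f. Over the 21 pairs of these 7 genes, the coding sequence before the loop was a median of 86.8% identical (82.5 to 92.8%), over the stretch that both transcripts hold. The capitals above were a median of 62.1% identical (53.6 to 74.0%), and the loop was less alike than the rest in 21 of 21 pairs. The pair with the most similar coding sequence before the loop was Serpina3f and Serpina3g at 92.8%, and their loops were 63.8% identical.

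This likeness bears on how well reads can be given to 1 gene. Of all 50-base windows of a member's transcript, 4.07% in Serpina3c, 6.75% in Serpina3n, 8.32% in Serpina3f, 8.79% in Serpina3i, 11.7% in Serpina3g, 17.1% in Serpina3k and 19.1% in Serpina3m occurred exactly in another protein-coding Serpina3 transcript. Pseudogenes were not searched, so windows shared with Serpina3h are not in these percentages, and Serpina3h itself was not measured. The windows of Serpina3f and Serpina3i were shared mostly with Serpina3g, and those of Serpina3k with Serpina3m. How reads that match several genes were counted is not given in the sources used here, so counts below about 20 in a member, next to a far larger count in a paralog, are uncertain.

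Serpina3n was the member with the most counts. Its level was 2.76, 3.77 and 2.85 CPM in the 3 OsxCre libraries and 27.0, 16.7 and 23.7 CPM in the 3 Stat3fl/fl-labelled libraries. The groups did not overlap, and the lowest library of the second genotype was above the highest control. The means were 3.13 ± 0.557 and 22.5 ± 5.29 CPM (SD, n = 3), and the fitted log2 difference was 2.84 (SE 0.23), from 101 against 564 counts.

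Serpina3g had the most counts of the family in the controls. Its level was 3.62, 4.36 and 4.53 CPM in the OsxCre libraries and 17.2, 11.0 and 14.6 CPM in the Stat3fl/fl-labelled libraries. All 3 of the latter were above all 3 controls, and the fitted log2 difference of 1.77 (SE 0.21) was the smallest of the 4 tested members. The counts were 136 and 358, or 4.17 ± 0.487 against 14.3 ± 3.08 CPM (SD, n = 3).

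Serpina3f, the first of the 4 neighbours, was near 0 in the controls. It had 6, 1 and 8 counts in the OsxCre libraries and 124, 87 and 125 in the Stat3fl/fl-labelled libraries, which gave 0.571, 0.0991 and 0.671 CPM against 14.9, 10.7 and 14.6 CPM. The fitted log2 difference was 4.83 (SE 0.42), the third highest of the 15600 tested genes, and the controls together held only 15 counts. The ratio of scaled counts was 29.1, with a 95% interval of 17.4 to 52.6 that covers counting error only.

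The pseudogene Serpina3h, next to Serpina3g, had 2, 3 and 3 counts in the OsxCre libraries and 28, 16 and 32 in the Stat3fl/fl-labelled libraries. Its fitted log2 difference was 3.55 (SE 0.42), and the ratio of scaled counts was 12.3 (95% counting interval 5.95 to 29.6). No control held more than 3 counts, the number taken here as the floor of detection (0.252 to 0.368 CPM by library). Serpina3f and Serpina3h passed the filter on low counts only through the Stat3fl/fl-labelled libraries, so that they had to be higher there once they were tested.

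Serpina3i, the last of the 4 neighbours, did not pass the filter. It had 2, 1 and 0 counts in the OsxCre libraries and 7, 5 and 8 in the Stat3fl/fl-labelled libraries. The groups did not overlap, and the ratio of scaled counts was 8.66 with a 95% counting interval of 2.57 to 45.5.

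Serpina3c was the member whose groups overlapped at a measurable level. It had 5, 8 and 5 counts against 7, 6 and 6, or 0.563 ± 0.201 against 0.759 ± 0.0725 CPM (SD, n = 3). The ratio of 1.37 had a counting interval of 0.681 to 2.77, which includes 1, so a difference was not detectable at this depth.

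Serpina3m and Serpina3k were at or near 0. Serpina3m had 0, 2 and 0 counts against 3, 1 and 5, with overlapping groups and a ratio of 5.84 whose interval of 1.21 to 55.6 spans most of the family's values. Serpina3k had no count in any of the 6 libraries, which allows at most 0.252 to 0.368 CPM by library. The liver gene of the family was thus not detectable at this depth.

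**Figure D1:**
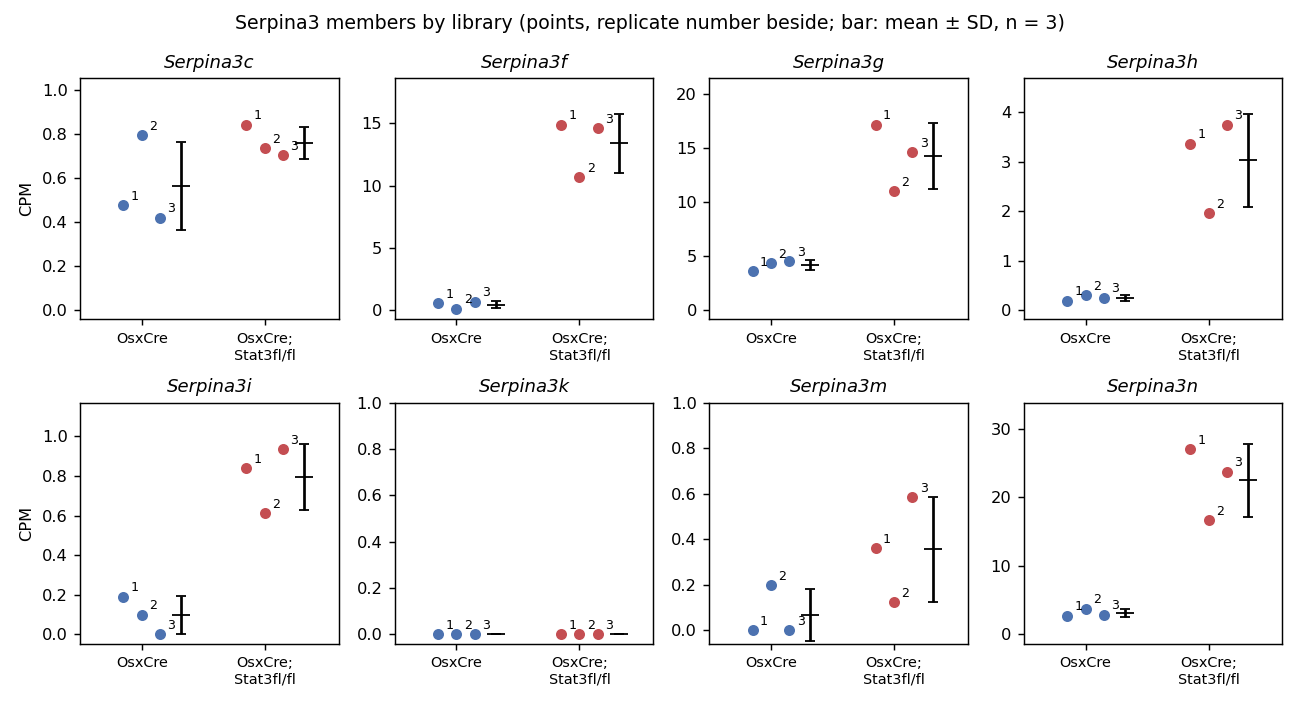
Level of each of the 8 members in CPM (vertical axis, a scale of its own in each panel) in the 3 OsxCre libraries (blue) and the 3 Stat3fl/fl-labelled libraries (red). Points are libraries with the replicate number beside them and bars are mean ± SD; Serpina3f, Serpina3g, Serpina3h, Serpina3i and Serpina3n do not overlap between the groups, Serpina3c and Serpina3m do, and Serpina3k is at 0 in every library.

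All 4 tested members were over 1.5-fold higher with no overlap between the groups. Of all tested genes 3.22% met the same rule, 502 of 15600, and because the members were selected on this contrast nothing is read from their count. By fitted log2 difference Serpina3f ranked 3, Serpina3h 8, Serpina3n 21 and Serpina3g 62 among all tested genes, whose median was -0.00. In bulk tissue more expressing cells and more RNA per cell cannot be told apart.

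Set on a scale per transcript length, the members fell into a high and a low tier. In the Stat3fl/fl-labelled libraries the means were 10.9 ± 2.56 RPKM (CPM per kilobase of the longest transcript, SD, n = 3) for Serpina3n, 7.92 ± 1.71 for Serpina3g, 5.95 ± 1.05 for Serpina3f and 2.44 ± 0.757 for Serpina3h. The libraries of Serpina3n and Serpina3g overlapped, at 8.08 to 13.1 and 6.12 to 9.52 RPKM, as did those of Serpina3g and Serpina3f, at 4.74 to 6.61 RPKM for the latter. Serpina3n was nevertheless above Serpina3g, and Serpina3g above Serpina3f, within each of the 3 libraries. In replicate 3 Serpina3g and Serpina3f had equal counts, 125 each. Their order there rests on the transcript lengths used, 1803 and 2252 bases. Serpina3h lay below these 3 without overlap, and Serpina3i at 0.362, Serpina3c at 0.343 and Serpina3m at 0.215 RPKM overlapped one another.

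In the OsxCre libraries the order was another. Serpina3g was first at 2.31 ± 0.270 RPKM and Serpina3n second at 1.51 ± 0.270, and their libraries did not overlap. Serpina3c at 0.254, Serpina3h at 0.199 and Serpina3f at 0.199 RPKM overlapped one another far below them. Serpina3f and Serpina3c, alike in the controls, were thus 5.95 and 0.343 RPKM in the Stat3fl/fl-labelled libraries.

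Summed over the 8 members, the level was 7.80, 9.62 and 8.73 CPM in the OsxCre libraries and 64.5, 41.8 and 58.9 CPM in the others. The ratio of the means, 55.1 ± 11.8 over 8.72 ± 0.907 CPM (SD, n = 3), was 6.32. The make-up of the sum differed with it. Serpina3g held 45.4 to 51.9% of the members' counts in the OsxCre libraries and 24.8 to 26.6% in the others, while Serpina3f held 1.03 to 7.69% and 23.1 to 25.5%. Serpina3n held 32.7 to 39.2% and 39.9 to 41.9%.

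**Figure D2:**
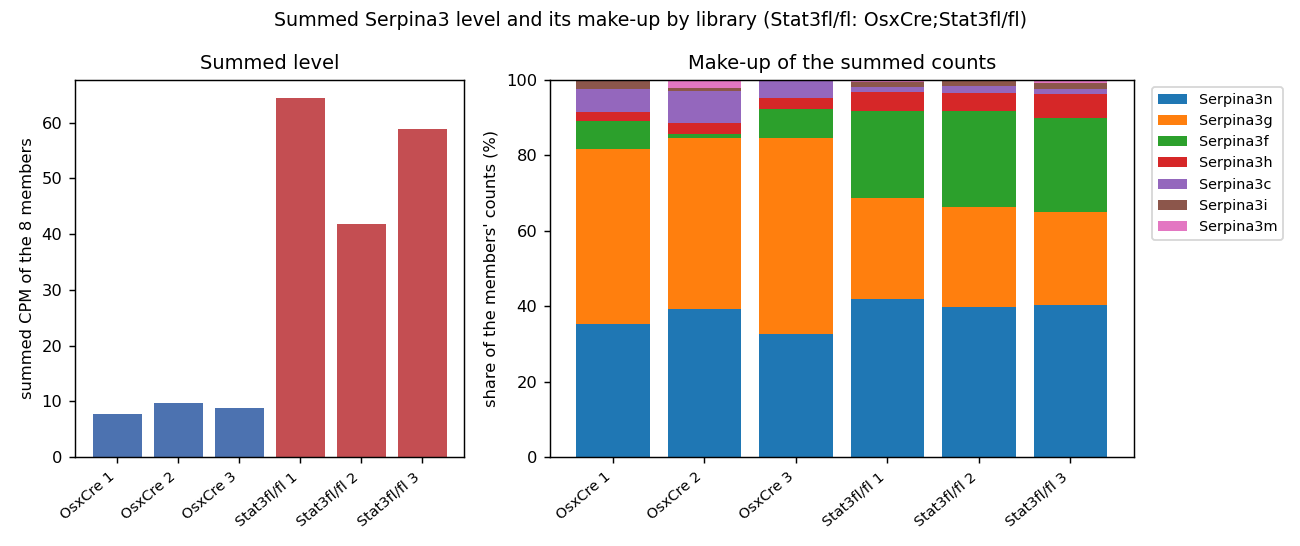
Left, summed CPM of the 8 members in each of the 6 libraries (bars). Right, the percentage of the members' counts that each gene holds in the same libraries, with Serpina3g at 45.4 to 51.9% in the OsxCre libraries and 24.8 to 26.6% in the others, and Serpina3f at 1.03 to 7.69% and 23.1 to 25.5%.

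Among the Stat3fl/fl-labelled libraries, replicate 2 was the low one for the family. Of the 6 members with at least 15 counts over these 3 libraries, 5 had their lowest level there, at 0.552 times the mean of the other two for Serpina3h, 0.657 for Serpina3n, 0.690 for Serpina3i, 0.694 for Serpina3g and 0.723 for Serpina3f. Serpina3c, at 0.954, had its lowest level in replicate 3. Of all tested genes 30.7% were lowest in replicate 2, and the median ratio was 1.01. This pattern lies within 1 genotype, so the selection did not fix it, but it rests on 1 library.

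Other measures also set that library apart, in both directions. Summed skeletal muscle markers were highest there, at 50539 CPM against 40275 and 33950 CPM in replicates 1 and 3. Adipocyte markers were highest there as well, at 1809 against 842 and 1434 CPM. Osteoclast markers were lowest there, at 1965 against 2554 and 2702 CPM. The summed level of 8 neuronal marker genes, none of them at 0, was 23.3 CPM in replicate 2 and 305 and 482 CPM in the other two, against 110 to 370 CPM in the controls. Transthyretin (Ttr), a product of liver and choroid plexus and the only 1 of 10 hepatocyte markers to pass the filter, was at 2.21 CPM in replicate 2 and at 1060 and 2597 CPM in the other two, against 9.23 to 1140 CPM in the controls. The part of any of these in the lower Serpina3 values of that library was not tested.

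The liver's own defining gene, albumin (Alb), had 1, 0 and 5 counts in the OsxCre libraries and 20, 2 and 18 in the others, and the liver member Serpina3k had none. The summed level of 7 astrocyte markers, all detected, was 374 to 636 CPM in the controls and 332 to 396 CPM in the Stat3fl/fl-labelled libraries. Neutrophil markers, 9 genes of which 8 were tested, summed to 311 to 527 CPM and 128 to 200 CPM, and 3 of the 8 were lower at adjusted p under 0.05 (edgeR). Mast cell markers, 8 genes of which 7 were tested, summed to 270 to 325 CPM and 403 to 458 CPM, and 2 of the 7 were higher by the same test. Macrophage markers, 8 genes read and tested, summed to 409 to 438 CPM and 498 to 534 CPM, all 8 were on the higher side, and 1, C1qb, passed at adjusted p = 0.0253. Skeletal muscle markers, 10 genes and all tested, summed to 28830 to 30996 CPM and 33950 to 50539 CPM, with 1 called higher and 1 lower. None of the neutrophil, mast cell, macrophage and muscle markers read was at 0. The part of these cells in the Serpina3 difference was not tested.

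Along the chromosome, the members with every Stat3fl/fl-labelled library above every control stood in 2 places. Serpina3f, Serpina3g, Serpina3h and Serpina3i were consecutive. Serpina3i was among them at a low level, 0.796 CPM in the Stat3fl/fl-labelled libraries beside 0.759 CPM for Serpina3c. Its few counts next to those of Serpina3g are uncertain. Serpina3n stood at the far end with the 0 or near-0 loci Serpina3j, Serpina3k, Serpina3l-ps and Serpina3m between. The pseudogene Serpina3e-ps, just before Serpina3f and not among the 8, had 3 and 13 counts (ratio 5.63, counting interval 1.55 to 30.8). Serpina3a and Serpina3j had no count, Serpina3b and Serpina3d-ps had 1 count each in the controls, and Serpina3l-ps had none.

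**Figure D3:**
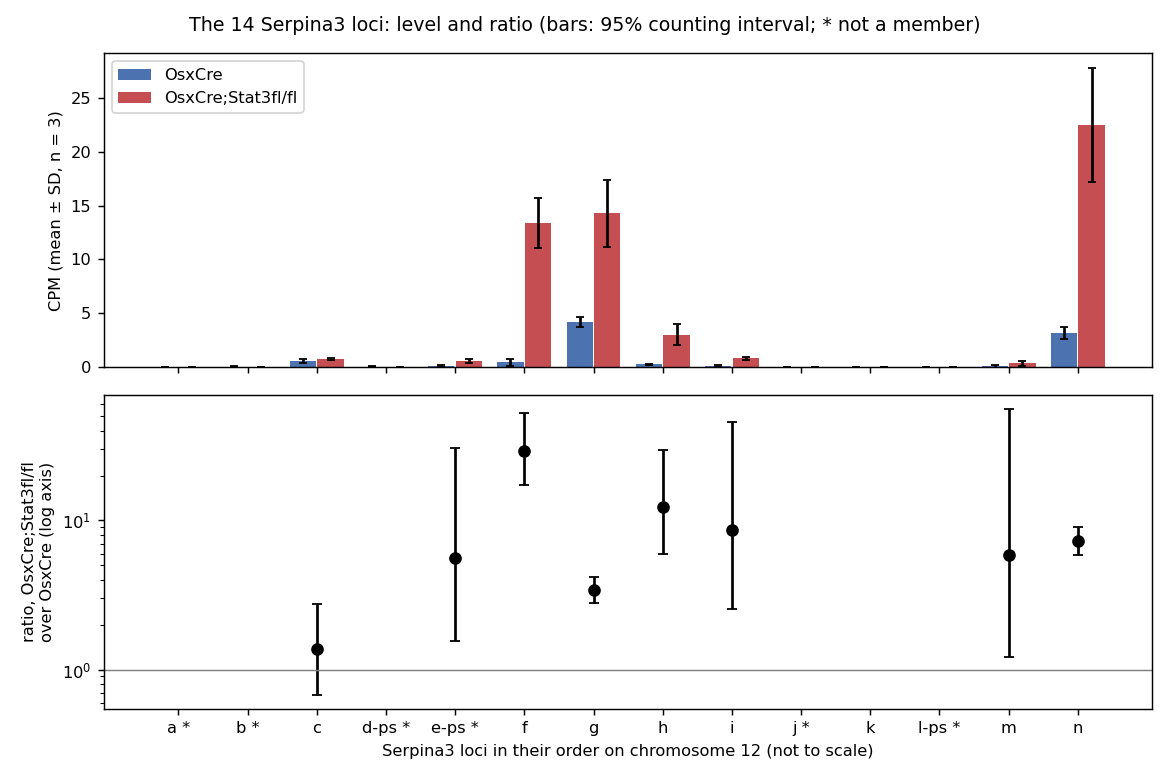
The 14 Serpina3 loci in chromosomal order (horizontal axis, not to scale, letters after Serpina3). Upper panel, CPM as mean ± SD of 3 libraries per genotype; lower panel, ratio of scaled counts between genotypes on a log axis with its 95% counting interval, from 1.37 for Serpina3c to 29.1 for Serpina3f, for loci with counts enough to give one.

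The genes around the cluster were not part of the selection. Of the 10 nearest tested non-serpin genes, 5 on each side, 2 had an unadjusted p under 0.05, beside 16.4% of all tested genes. Only 1 passed adjusted p under 0.05. That was Prima1, an anchor of acetylcholinesterase, 870 kb away, with a log2 difference of 1.21 (SE 0.22, adjusted p = 0.0498 by edgeR's quasi-likelihood test). Prima1 lost the call in each of 6 fits that left out 1 library, with adjusted p up to 0.195 over the alternatives. The nearest tested neighbours gave log2 differences of -0.51 for Gsc, 56.9 kb beyond Serpina3n, and -0.14 for Dicer1 (SE 0.78 and 0.07), and 7 of the 10 were on the lower side of 0.

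The promoters are shown because all 5 members with a promoter entry in RefSeq (GRCm38.p6) hold the same pair of short elements in the same order. Each line gives the bases from shortly before a 9-base element to the end of a 13-base run, 5′ to 3′ on the gene's strand. The first capitals mark the 9-base element, which has the letters TTNCNAGAA, and the second mark the run. The windows are chr12:104406565-104406638 (forward strand) for Serpina3n, chr12:104236094-104236167 (forward) for Serpina3g, chr12:104214403-104214467 (forward) for Serpina3f, chr12:104263000-104263073 (forward) for Serpina3i and chr12:104153939-104154012 (reverse) for Serpina3c.
Serpina3n: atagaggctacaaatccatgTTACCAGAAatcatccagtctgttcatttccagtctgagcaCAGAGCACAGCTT
Serpina3c: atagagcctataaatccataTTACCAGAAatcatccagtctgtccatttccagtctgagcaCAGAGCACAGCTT
Serpina3g: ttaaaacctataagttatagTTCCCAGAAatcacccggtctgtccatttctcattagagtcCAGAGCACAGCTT
Serpina3i: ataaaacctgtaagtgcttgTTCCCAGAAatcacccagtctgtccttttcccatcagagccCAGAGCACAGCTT
Serpina3f: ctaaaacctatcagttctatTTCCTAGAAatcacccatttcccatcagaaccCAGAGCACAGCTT

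The run CAGAGCACAGCTT was in 7 of 32817 promoter windows of 300 bases, 6 of them of these 5 members (Serpina3f has a pair of annotated starts that share the site) and 1 of Olfr374. The 9 letters TTNCNAGAA, chosen after the sequences were seen and searched on both strands, were in 5.07% of all promoter windows. A form that STAT proteins bind, though not the only one, is the gamma-activated sequence TTCNNNGAA. It was in the windows of Serpina3f, Serpina3g and Serpina3i and in 8.29% of all windows, and it overlaps the 9-base element. It began 33 bases before the annotated start in Serpina3g, 102 in Serpina3i and 121 before the first start of Serpina3f. Serpina3n and Serpina3c hold no TTCNNNGAA in the window, and an element of the same place that reads TTACCAGAA.

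By whole windows the promoters fell into the same 2 sets. Serpina3c and Serpina3n were 92.6% identical, and Serpina3f, Serpina3g and Serpina3i were 75.6 to 79.0% identical to one another, whereas pairs across the sets were 63.4 to 67.7% identical. The sets did not sort with the values: Serpina3n and Serpina3c share the closest promoters of all, and they stood at 22.5 and 0.759 CPM in the Stat3fl/fl-labelled libraries. Other patterns were in some of the windows. The C/EBP form TTGCNNAA was in the windows of Serpina3f and in 10.8% of all. The glucocorticoid receptor half-site AGAACA was in windows of Serpina3c, Serpina3f, Serpina3i and Serpina3n and in 19.0% of all. Each pattern was searched on both strands. These matches are letters in a window and were not measured as binding.

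Outside the family, the genes whose profile over the 6 libraries was most like that of Serpina3n were AA465934, Tgtp1, Iigp1, Gm5182 and BB123696. Likeness was the root mean square difference of log2(CPM + 1) after each gene's mean was removed, and it was 0.253, 0.332, 0.347, 0.384 and 0.390, against a median of 1.28 over all tested genes. Tgtp1 and Iigp1 encode interferon-inducible GTPases. The 5 genes outside the family most like Serpina3g were Gm12250 (0.149), Gm4841 (0.163), Gbp3 (0.170), Clca1 (0.176) and Gbp6 (0.184), against a median of 0.819, and Gbp3 and Gbp6 encode guanylate-binding proteins, which are also interferon-inducible. Among the members themselves, Serpina3g and Serpina3h were the closest pair at 0.134, and Serpina3f and Serpina3g the farthest at 0.917. The added 1 CPM shrinks the profile of genes at low levels, so likeness here is not likeness of fold. The fitted log2 differences were 1.77 for Serpina3g and 3.55 for Serpina3h, and 2.60 for Gm12250 and 5.82 for Gm4841. The likeness values are descriptions over 6 libraries, and the genotype difference that chose the members makes up most of each profile.

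**Figure D4:**
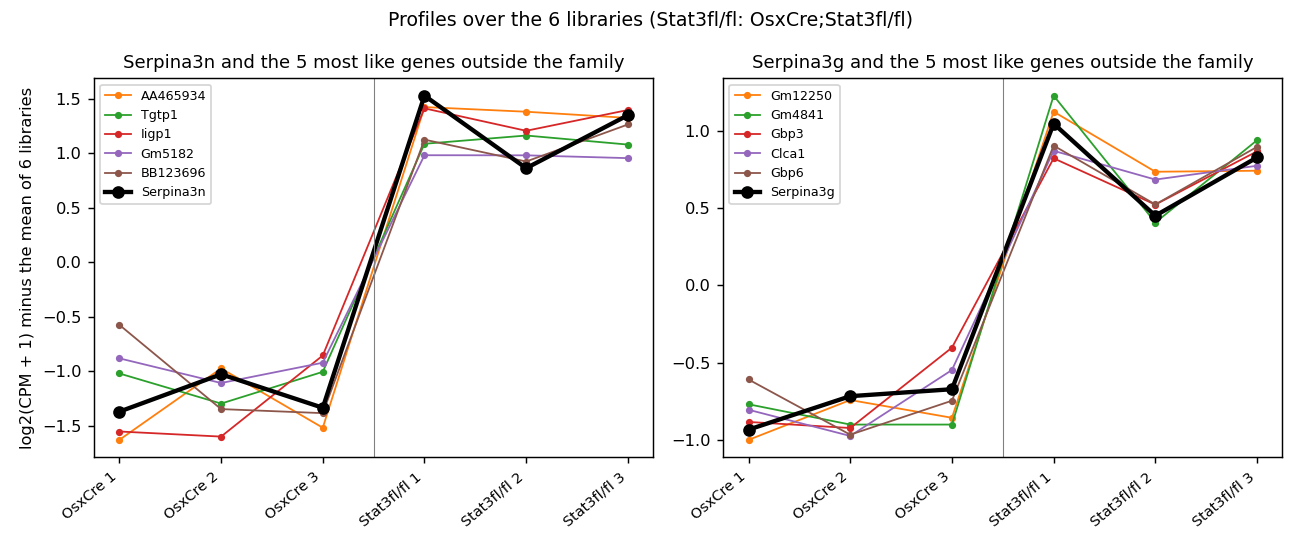
Centred log2(CPM + 1) (vertical axis) of Serpina3n (left, black) and Serpina3g (right, black) with the 5 genes outside the family most like each (coloured) over the 6 libraries; lines only join the points of a gene, and libraries of a genotype have no order. Every gene drawn is higher in the 3 Stat3fl/fl-labelled libraries, and replicate 2 is the lowest of these 3 for Serpina3n and Serpina3g.

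The genes that act with the Serpina3 family were read from lists that did not hold the members. Among all tested genes 0.776% were higher and 0.481% lower in the Stat3fl/fl-labelled libraries at adjusted p under 0.05 (edgeR's quasi-likelihood test), with a median log2 difference near 0. No other serpin of clade A had enough counts to be tested. Serpina9, which had the most counts of them, had 6, 3 and 3 counts against 5, 0 and 4, with overlapping groups. Serpina1b, an alpha-1-antitrypsin gene, had 1, 2 and 1 counts against 4, 4 and 4. It was the only gene of that list whose groups did not overlap, at counts near the floor, so no direction is read from it. Of 12 tested serpins of other clades none passed with edgeR, 4 had an unadjusted p under 0.05, beside 16.4% of all tested genes (2553 of 15600), and DESeq2 called 1 lower. The most abundant, the collagen chaperone gene Serpinh1, had 1449 ± 133 against 1025 ± 93.6 CPM (log2 difference -0.50, adjusted p = 0.0877), and Serpinf1, which encodes PEDF, had 491 ± 50.6 against 447 ± 40.7 CPM (SD, n = 3, edgeR). The median over the 12 was 0.01.

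Serine proteases of immune-cell granules and lysosomal cathepsins are the protease groups nearest to the family, although not each of them is inhibited by a Serpina3 product. The list read for the granule proteases also held some serine proteases that are not of immune-cell granules, of which Cela1 was tested. Of 8 tested granule serine proteases 1 rose with edgeR, the mast cell tryptase gene Tpsb2, with a log2 difference of 0.54 (SE 0.09, adjusted p = 0.0423), and the median of the 8 was 0.29. In this list 3 genes had an unadjusted p under 0.05, beside 16.4% of all tested genes. They were Cma1, Tpsab1 and Tpsb2, all of mast cells. DESeq2 called 3 higher, as did edgeR with no filter on low counts, and limma-voom called 1. Ctsg, which encodes the neutrophil protease cathepsin G, was at 1.65 ± 0.486 and 1.58 ± 1.27 CPM (SD, n = 3). Of 9 tested cysteine cathepsins, the lysosomal proteases that Serpina3g inhibits, 1 rose, Ctsl, with a log2 difference of 0.58 (SE 0.09, adjusted p = 0.0365), and the median was 0.13. Tpsb2 kept its call in 1 of 6 fits without 1 library, that without OsxCre;Stat3fl/fl replicate 1 (adjusted p up to 0.159 over the alternatives), and Ctsl in none (up to 0.173).

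Of the pathways known to induce the family, the gp130 route to STAT3 showed no call. None of 15 tested ligands, receptors, kinases and SOCS genes passed with edgeR, and 10 were on the higher side and 5 on the lower. An unadjusted p under 0.05 was reached by 2, beside 16.4% of all tested genes. They were Osmr and Il6ra, with log2 differences of 0.55 and 0.81. DESeq2 called 1 and limma-voom 0, and the median log2 difference was 0.11. Il6st, which encodes gp130 itself, was at 181 ± 12.3 and 197 ± 8.86 CPM, and Il11ra1 at 171 ± 6.88 and 168 ± 12.5 CPM (SD, n = 3). Of 12 tested acute-phase genes outside the family none passed, 9 were on the higher side and 3 on the lower, and the median was 0.18. An unadjusted p under 0.05 was reached by 3, beside 16.4% of all tested genes. They were Lcn2 and Lbp, with log2 differences of 0.78 and 0.35, and Hp with -0.79. DESeq2 called 1. The 2 with the most counts were Cp, which encodes ceruloplasmin, at 86.5 ± 13.9 and 95.4 ± 21.0 CPM, and Steap4 at 40.3 ± 6.57 and 50.2 ± 6.50 CPM (SD, n = 3).

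Among 19 tested receptors and transcription factors of the other inducing routes, 1 rose. Cebpd, a C/EBP factor of the acute-phase response, was at 22.3 ± 2.90 and 51.2 ± 7.73 CPM (log2 difference 1.20, SE 0.14, adjusted p = 0.0142, edgeR, n = 3 per genotype). Its call was lost without OsxCre;Stat3fl/fl replicate 3, and its adjusted p was at most 0.0979 over the alternatives. The median of the 19 was 0.20, and the interferon-gamma receptor genes Ifngr1 and Ifngr2 gave 0.26 and -0.28 with no call.

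The interferon-gamma induced list, in contrast to those lists, rose with the members. All 19 genes were on the higher side, 12 passed with edgeR and 0 fell, and the median log2 difference was 1.55, against -0.00 over all tested genes. The 4 with the smallest p were Iigp1 at 2.81 (SE 0.22, adjusted p = 0.00363), Tgtp1 at 3.55 (SE 0.30, adjusted p = 0.00403), Gbp6 at 1.66 (SE 0.16, adjusted p = 0.00785) and Igtp at 1.55 (SE 0.16, adjusted p = 0.00875), all encoding interferon-inducible GTPases. Tgtp1, Tgtp2, Gbp2, Nlrc5 and Cxcl9, all counted among the 12, passed the filter on low counts only through the Stat3fl/fl-labelled libraries. These genes therefore had to be higher there once they were tested. The list's summed level was 152 to 183 CPM in the OsxCre libraries, and 449, 357 and 409 CPM in the Stat3fl/fl-labelled libraries, again lowest in replicate 2. The count of 12 fell to 3 without OsxCre;Stat3fl/fl replicate 3, to 4 without OsxCre;Stat3fl/fl replicate 1 and to 5 without OsxCre replicate 1.

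The glucocorticoid induced list rose in part. Of 11 tested genes 5 passed with edgeR, 10 were on the higher side, 0 fell and the median was 0.84. The metallothionein genes Mt1 and Mt2 gave log2 differences of 1.54 (SE 0.14, adjusted p = 0.00577) and 1.92 (SE 0.18, adjusted p = 0.00768), and Tsc22d3 and Errfi1 gave 0.76 and 0.73. Here replicate 2 was not low, with summed levels of 1328, 1639 and 1558 CPM in the Stat3fl/fl-labelled libraries and 767 to 1228 CPM in the controls. The count was 3 without OsxCre replicate 2 or without OsxCre;Stat3fl/fl replicate 1 and 0 without OsxCre;Stat3fl/fl replicate 3. The lists were put together with earlier results of these data known, so their counts are not independent of the choice.

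**Figure D5:**
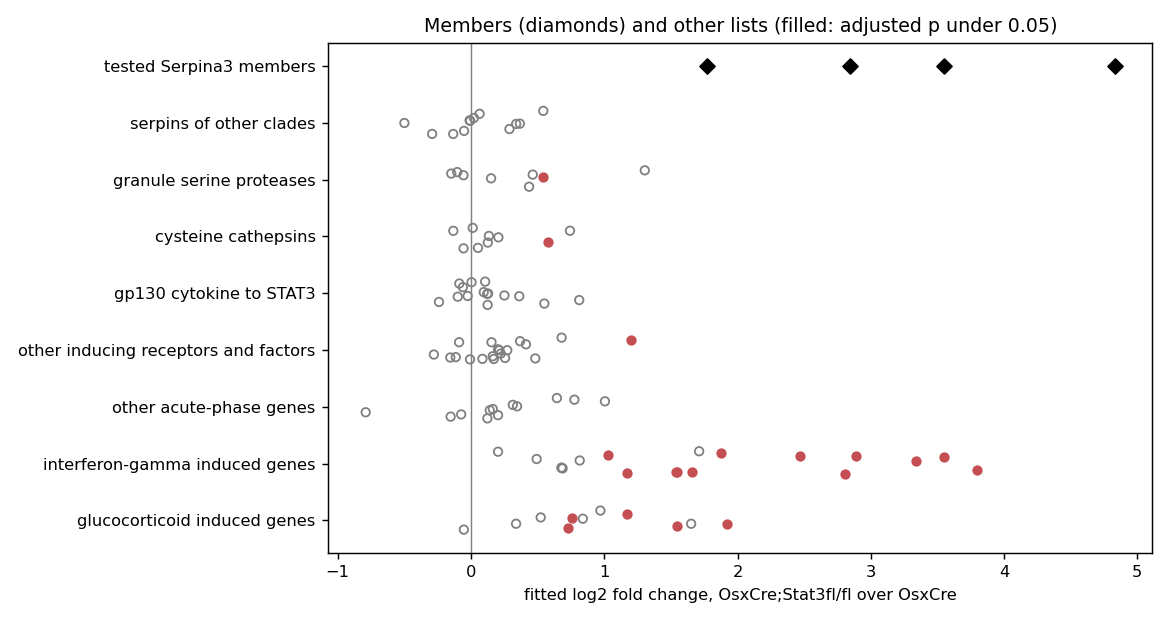
Fitted log2 fold change between genotypes (horizontal axis) of the 4 tested members (diamonds, selected on this contrast and not tested) and of the tested genes of 8 other lists (circles, filled where adjusted p was under 0.05). The members lie at 1.77, 2.84, 3.55 and 4.83, and the list with the most filled circles is that of interferon-gamma induced genes, with a median of 1.55.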

How the data were processed

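RNA from parietal bone of 3 OsxCre and 3 OsxCre;Stat3fl/fl newborn littermates was extracted with Trizol, made into TruSeq libraries from 1 µg and sequenced; the labels name the molecule polyA RNA. The authors deposited whole-number read counts per gene symbol, not normalized. The submitters' processing notes name HISAT2 and GRCm38, whereas the study's methods name TopHat, mm9 and FPKM. The counter and its annotation are not given in the sources used here, and 71.6% of symbols matched RefSeq GRCm38.p6. Genes were kept with edgeR 4.0.16 (filterByExpr, minimum count 10, minimum total 15), scaled by TMM and fitted with the quasi-likelihood test over both genotypes, with no covariate. The p-values were adjusted by Benjamini-Hochberg over 15600 genes, threshold 0.05, and a fold line of 1.5 was used. Alternatives were DESeq2 1.42.0, limma-voom 3.58.1, other scalings, no filter, a replicate block and each library left out. On simulated counts with 2-fold changes between these genotypes, 58.85% of 192 changed genes among 15403 were recovered, with 13 other calls. Counting intervals are 95% and cover counting error only; 3 counts are the floor. With 8193651 to 12080044 counts per library, a level under about 0.3 CPM was not measured.

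The members, the gene lists and the markers were chosen with earlier results of these data known. Genes named beside the members are Stat3, other Serpina3 and clade A serpins, for each other list the called genes (at most 4 by smallest p) or, with none called, the 2 with most counts, and the 5 most like genes of Serpina3n and Serpina3g. Alb, Ttr, Ctsg, Ibsp, the genes beside the cluster and the interferon-gamma receptors were named after their values were seen. So were Osmr, Il6ra, Lcn2, Lbp, Hp, Tgtp2, Gbp2, Nlrc5, Cxcl9, Cela1, Cma1 and Tpsab1. The libraries of a genotype differed by more than counting noise (chi-square per degree of freedom 7.51 to 15.6), so none was taken as a repeat. The methods give 3 mice per genotype. Promoter windows come from RefSeq GRCm38.p6 and coding sequences and lengths from GENCODE vM1.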

Additional observations from a re-analysis of the deposited data

How the results depend on the processing

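The count of tested members over 1.5-fold higher without overlap was 4 under the 3 other scalings and with each library left out. The log2 ratio of the summed member level was 2.53 to 2.83 with 1 library left out, and the fitted log2 difference ranged over 13 alternatives from 4.39 to 5.25 for Serpina3f, 3.37 to 3.79 for Serpina3h, 2.69 to 3.03 for Serpina3n and 1.62 to 1.93 for Serpina3g. Stat3 was 0.08 to 0.17 and passed in none of them. The counts over all genes, 121 higher and 75 lower, were less stable. They were 304 and 235 with DESeq2 and 250 and 178 with no filter on low counts, library totals gave 114 lower, and leaving out 1 library gave 7 to 67 higher and 5 to 36 lower. The cause was not tested. With a replicate block the counts were 0 higher and 1 lower; deviations of libraries with the same number correlated at -0.10, -0.52 and -0.09, so the numbers do not pair the libraries, and none of the 20 calls in the lists stood under that block, where their adjusted p was at least 0.0522. Depth limits Serpina3c, Serpina3i, Serpina3k and Serpina3m, with 0 to 37 counts over 6 libraries each, to counting intervals.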
